A study of Arabidopsis thaliana with 24 samples.

Results

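The cytosolic ribosome of Arabidopsis thaliana is built from proteins of a large 60S and a small 40S subunit, and the genes described here are 53 loci that encode them, 34 for the 60S and 19 for the 40S subunit, out of 28056 genes with at least 1 read in the 24 libraries. They were taken from the deposited tables by their locus identifiers, one list entry per gene, and stand for 39 protein families, 12 of which are present with more than 1 paralog. Total RNA came from whole seedlings, 9 days old, grown on 1/2 MS medium with 1% sucrose, of wild type Col-0 and of the single mutant line exa1-1. One set of 12 libraries held both genotypes after 60 min on 1/2 MS or on the same medium with 200 mM NaCl, and the other set of 12 held both genotypes after 60 min at 23 °C or at 39 °C, with 3 biological replicates in each of 8 groups. EXA1 (AT5G42950) encodes a GYF-domain protein needed for the accumulation of potexviruses. All groups shared the age, the medium they were grown on and the whole-seedling tissue, so a group is a mixture of organs and cell types, with about 50 mg of tissue in a sample and no stated number of seedlings.

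Every ribosome needs its proteins in matched amounts, and growing plant cells spend a large part of their transcription on them. In plants most ribosomal proteins are encoded by small families of paralogs, several of which can be used in the same cell. Many of their genes carry short promoter motifs, the telo-box and site II, and their translation and transcription are linked to growth through the TOR kinase, which acts on S6 kinase and through it on RPS6. Mutants in single genes often have pointed or piggyback leaves, which gave names such as PFL (RPS18A, RPS13A) and PGY (RPL9, RPL10a, RPL5).

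Gene lengths were compared with the annotation of the TAIR10.1 assembly. For all 53 the summed exon length of that annotation was within 1% of the length by which the deposited FPKM values (reads per length of gene and library total) had been divided. The same held for 27713 of 27862 genes compared. Upstream sequences were read from these gene models, though equal lengths do not show that positions or starts are the same. In the 250 bases before the annotated gene start, a site II element (TGGGCC or TGGGCT, on either strand, reverse complements GGCCCA and AGCCCA) was present for 35 of the 53 genes (66.0%), against 19.2% of 27443 protein-coding genes. A telo-box (AAACCCTA, or TAGGGTTT on the other strand) was present for 7 of the 53 (13.2%), against 4.49% of those genes. Both motifs were found before 5 of the 53, neither before 16, and the shares were alike for the 2 subunits, with site II at 67.6% for the 60S and 63.2% for the 40S genes. These are matches of letters and not shown binding sites, and a start site that lies inside the annotated gene would put its motifs outside the window.

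The last 100 bases before the gene start are shown for 4 genes on which the results turn: the 3 RPL10 paralogs, which moved apart under NaCl, and RPL12, which was lower at 39 °C. Capitals mark site II and telo-box letters. The RPL10A stretch lay at chr1:4888014-4888113, RPL10B at chr1:9321550-9321649 and RPL10C at chr1:24838990-24839089, all on the plus strand, and RPL12 at chr2:15620157-15620256, on the minus strand (TAIR10.1, sequence and annotation from RefSeq). None of the 4 stretches overlapped an exon of another gene.
RPL10A, AT1G14320: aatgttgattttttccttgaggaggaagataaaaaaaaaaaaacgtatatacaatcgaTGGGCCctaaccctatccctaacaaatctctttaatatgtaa
RPL10B, AT1G26910: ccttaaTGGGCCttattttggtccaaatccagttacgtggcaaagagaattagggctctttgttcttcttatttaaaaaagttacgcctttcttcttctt
RPL10C, AT1G66580: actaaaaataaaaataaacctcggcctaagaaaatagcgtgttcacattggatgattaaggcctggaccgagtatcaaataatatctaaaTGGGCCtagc
RPL12, AT2G37190: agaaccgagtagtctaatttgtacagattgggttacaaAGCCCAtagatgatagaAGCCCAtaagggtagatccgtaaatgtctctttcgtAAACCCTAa
The RPL10 stretches held 1 site II element each and no telo-box, at different distances from the start. RPL12 held 2 site II elements and 1 telo-box.

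Libraries held 17600922 to 21557382 counted reads. EXA1, the mutated gene, was counted at 1488 to 3111 reads per wild-type library and at 143 to 342 per mutant library, so that reads of the gene were left in exa1-1. RD29A (AT5G52310), a salt- and cold-induced gene, rose by 4.57 (SE 0.02) on the log2 scale with NaCl in wild type, and HSP101 (AT1G74310), a heat-shock chaperone, rose by 10.02 (SE 0.13) at 39 °C. Replicates lay nearer to counting noise in the salt set than in the heat set. The mean chi-square per gene and replicate pair, where 1 is counting noise alone, was 1.68 to 2.19 in the salt set and 3.36 to 19.3 in the heat set. The 20 most counted genes took 6.24% to 6.78% of reads at 23 °C and 14.5% to 16.6% at 39 °C.

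All 53 genes were measured well above the low-count filter and all 53 were tested in both sets. Per length of exon, the well expressed genes included RPL19 (AT1G02780), a 60S protein, with a mean FPKM of 797.8 over the 24 libraries and RPL10A (AT1G14320) with 537. The median member stood at 270.0 FPKM. The lowest were a gene of the acidic stalk protein P0, RPP0 (AT2G40010), at 11.8, RPL10B (AT1G26910) at 20.4 and another RPP0 gene (AT3G11250) at 27.8, each the minor copy of a family whose major copy was among the well expressed genes. In wild type on 1/2 MS, RPL19 read 1039.8, 1036 and 1075 FPKM in the 3 replicates, and the RPP0 gene AT2G40010 read 19.0, 19.5 and 18.9. Replicates differed far less than genes did.

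Together the 53 genes took 2.35% to 2.39% of all reads in wild type on 1/2 MS and 1.69% to 1.71% with NaCl. In exa1-1 the share was 2.46% to 2.49% on 1/2 MS and 1.83% to 1.87% with NaCl. In the heat set it was 1.39% to 1.56% in wild type at 23 °C and 1.15% to 1.27% at 39 °C, and 1.64% to 1.67% and 1.24% to 1.35% in exa1-1. Groups did not overlap between stressed and unstressed seedlings of one genotype in either set. The unstressed groups of the 2 sets also stood apart, and since the sets were not normalized to each other by any shared group, the set and the medium or temperature regime cannot be told apart there.

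**Figure D1:**
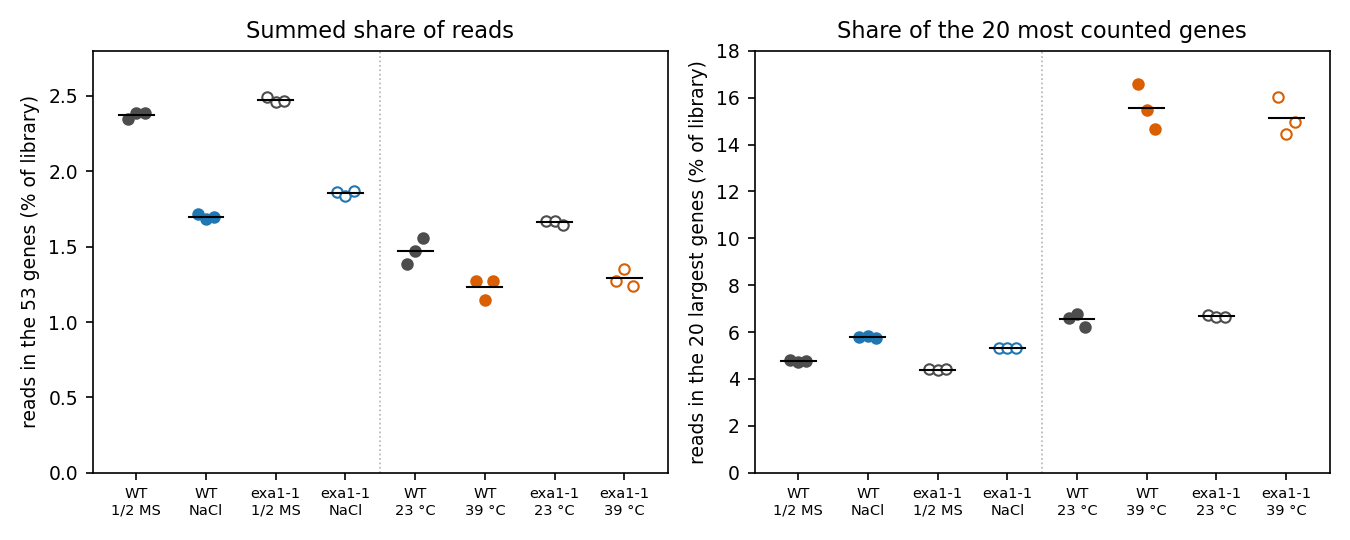
Left: reads in the 53 ribosomal protein genes as a percentage of all counted reads, for each library. Right: the same for the 20 most counted genes. Points are libraries (filled wild type, open exa1-1), bars are means of 3 replicates, and the dotted line separates the salt set from the heat set. The share of the 53 genes was lower with NaCl, 1.69% to 1.71% against 2.35% to 2.39% in wild type, and the 20 most counted genes took up to 16.6% of reads at 39 °C.

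With 200 mM NaCl for 60 min the ribosomal protein genes were lower almost without exception. In wild type 52 of 53 fell and 1 rose, against 37.6% of all 21759 genes tested that were lower and 36.9% that were higher (edgeR quasi-likelihood test, adjusted p below 0.05). In exa1-1 50 fell and 1 rose, against 37.9% lower and 37.1% higher. The 50 that fell in exa1-1 were all among the 52 of wild type, and the gene that rose was the same. The falls were small: the median over the 53 genes was a log2 change of -0.37 in wild type and -0.29 in exa1-1, where the median over all genes tested was -0.01 in both. With library totals alone in place of TMM factors the medians were -0.52 and -0.44 and the medians of all genes -0.16 in both, so the direction held and the distance to the other genes stayed at -0.36 and -0.28. In a bulk sample fewer cells of a type and less RNA per cell cannot be told apart. Markers of other tissues moved too. Of 8 root genes 7 were lower with NaCl in wild type, with a summed level of 80.8 to 84.3 CPM (counts scaled to a common library size) on 1/2 MS and 25.2 to 26.5 with NaCl. Of 12 genes of dividing cells 10 were lower, with 133.6 to 138.8 CPM on 1/2 MS and 80.9 to 85.9 with NaCl. In exa1-1 7 of 8 and 11 of 12 were lower. No marker of either list was at 0 in any group, and their part in the fall of the ribosomal genes was not tested.

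The gene that rose was RPL10C (AT1G66580), one of 3 paralogs of RPL10, a 60S protein known from yeast to be needed for joining of the subunits, and annotated here also as a senescence-associated gene. Wild-type libraries held 323, 332 and 326 CPM on 1/2 MS and 564, 551 and 569 with NaCl, a log2 change of 0.78 (SE 0.02) (edgeR adjusted p = 5.78e-76). In exa1-1 it went from 317, 318 and 315 to 537, 533 and 536 CPM, a change of 0.76 (SE 0.02). Every NaCl library was above every 1/2 MS library. Its paralog RPL10A (AT1G14320, SAC52), the major copy and a known target of the immune kinase NIK, went the other way: 890.2, 903 and 901 CPM on 1/2 MS and 712, 689.9 and 694 with NaCl in wild type, a change of -0.36 (SE 0.02), and -0.32 (SE 0.02) in exa1-1. The minor copy RPL10B (AT1G26910) fell further, from 33.4, 33.0 and 37.1 to 16.5, 17.4 and 18.3 CPM in wild type, a change of -0.98 (SE 0.07) (edgeR adjusted p = 9.89e-29), and by 0.74 in exa1-1. Neither fall left an overlap between NaCl and 1/2 MS libraries of one genotype.

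**Figure D2:**
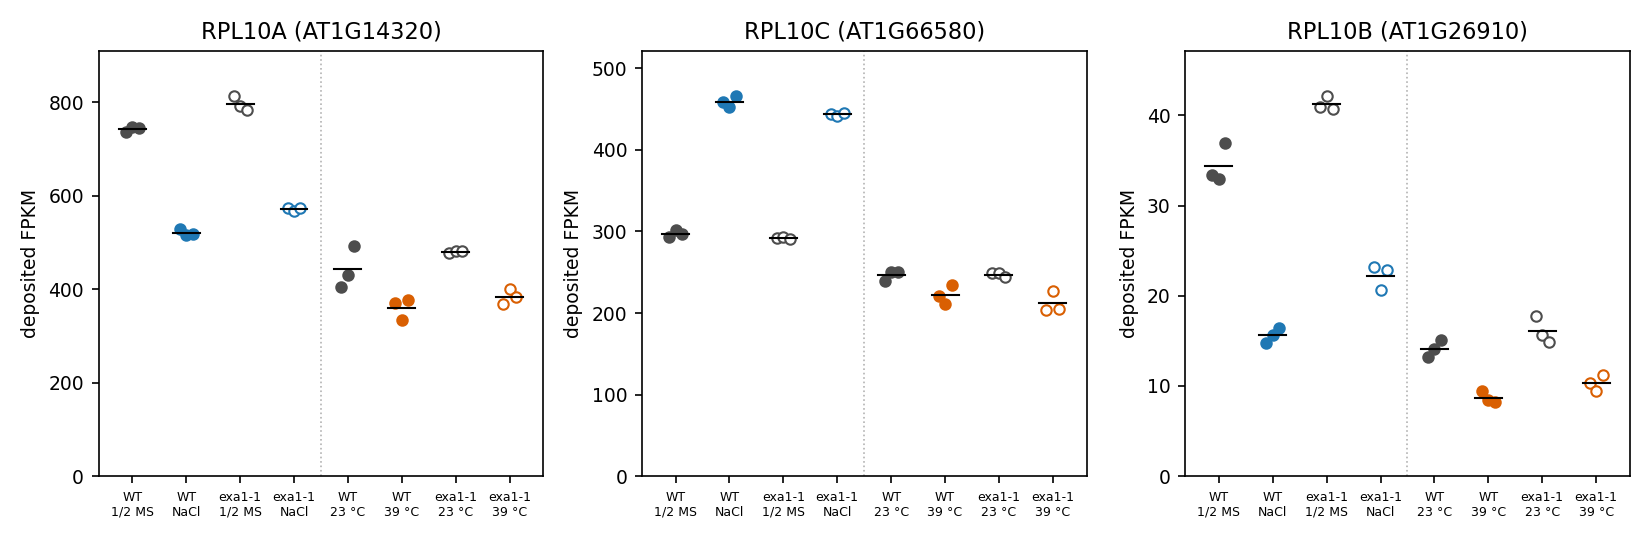
Deposited FPKM of the 3 RPL10 paralogs in each library, on axes of different height that start at 0; points are libraries (filled wild type, open exa1-1) and bars are means of 3 replicates. RPL10C rose with NaCl, from between 293.5 and 302.1 to between 452.6 and 465.8 FPKM in wild type, while RPL10A and RPL10B fell.

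The largest fall was in the minor RPP0 gene AT2G40010. RPP0 forms the base of the stalk that recruits elongation factors. The gene held 26.8, 27.6 and 26.7 CPM on 1/2 MS and 8.69, 8.54 and 8.26 with NaCl in wild type, a log2 change of -1.67 (SE 0.09) (edgeR adjusted p = 3.99e-42), and fell by 1.54 in exa1-1. Of its exon bases 50.2% are also covered by exons of a gene on the opposite strand. The libraries were strand-specific, but the strand setting of the counting was not given, so reads of the 2 genes may be mixed. The other RPP0 genes moved less: AT3G09200, which had most of the family's reads, by -0.23 (SE 0.02) and AT3G11250 by -0.64 (SE 0.05) in wild type, and by -0.24 and -0.43 in exa1-1. After these, the lowest values in wild type were RPL23aB (AT3G55280), of a protein at the exit of the peptide tunnel, at -0.79 (SE 0.04), and RPL21 (AT1G09590) at -0.75 (SE 0.03). In exa1-1 they were RPL24A (AT2G36620) at -0.71 (SE 0.03) and RPL21 at -0.65 (SE 0.03). The adjusted p-values of these 4 values lay at or below 3.25e-49 by the same edgeR test.

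In exa1-1 RPL9 (AT1G33120) stood at -0.04 (SE 0.04) with NaCl, which did not pass the test. RPL19, well expressed, went from 1102, 1098 and 1141 to 922, 908 and 911 CPM in wild type, a change of -0.29 (SE 0.02), with no overlap between the groups. The genes with no paralog among the 53 ranged from RPL21 (AT1G09590) at -0.75 to RPL3 (AT1G43170) at -0.18 in wild type and from RPL21 (AT1G09590) at -0.65 to RPL3 (AT1G43170) at -0.06 in exa1-1. The 2 subunits moved alike, with medians of -0.37 and -0.37 for 60S and 40S genes in wild type and -0.31 and -0.27 in exa1-1.

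Paralogs of one protein did not fall in step. The ratio of read counts of 2 paralogs within a library does not depend on how libraries are scaled, and 16 such ratios were compared between 6 NaCl and 6 unstressed libraries by an exact two-sided permutation test within genotypes. Of the 16, 15 passed at an adjusted p below 0.05 (Benjamini-Hochberg over 64 ratio tests). Ratios of other pairs of genes were not compared, so this count is not shown to be particular to paralogs. The smallest p the 400 arrangements allow is 0.005, and after adjustment 0.0107. The ratio RPL10A to RPL10C dropped from between 2.72 and 3.05 to between 1.22 and 1.42, a shift of -1.11 on the log2 scale (exact permutation, adjusted p = 0.0107). For RPS6, the 40S protein phosphorylated through TOR, the ratio RPS6A (AT4G31700) to RPS6B (AT5G10360) changed sides, from between 1.07 and 1.14 on 1/2 MS to between 0.781 and 0.857 with NaCl, a shift of -0.43. RPS6A itself changed by -0.64 (SE 0.02) in wild type and -0.52 (SE 0.02) in exa1-1, and RPS6B by -0.22 (SE 0.02) and -0.08 (SE 0.02).

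For RPL24, whose B copy (STV1) is known for reinitiation on messenger RNAs with upstream reading frames, the A copy fell by 0.75 and the B copy (AT3G53020) by 0.41 in wild type, and their ratio went from between 0.565 and 0.608 to between 0.435 and 0.473. RPL23aA (AT2G39460) gained on RPL23aB, from between 3.00 and 3.26 to between 3.77 and 4.32, and fell by 0.32 and 0.24. In the RPL5 pair, a protein that carries 5S ribosomal RNA, RPL5A (AT3G25520) fell by 0.25 and RPL5B (AT5G39740) by 0.56 in wild type, and the ratio of A to B rose from between 1.26 and 1.31 to between 1.55 and 1.64. In the RPL4 pair AT3G09630 fell by 0.25 and AT5G02870 by 0.56, and the ratio of the first to the second rose from between 0.795 and 0.819 to between 0.966 and 1.03. In these 4 pairs NaCl and unstressed libraries did not overlap in the ratio, and each passed at the adjusted p of 0.0107 (exact permutation).

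Within RPL10a, AT1G08360 fell by 0.34 and AT2G27530 (PGY1) by 0.15 in wild type, and their ratio shifted by -0.21. The RPP0 ratios of AT3G09200 to AT2G40010 and to AT3G11250 shifted by 1.37 and 0.30, and that of AT2G40010 to AT3G11250 by -1.07. The other 2 RPL10 ratios, RPL10A to RPL10B and RPL10B to RPL10C, shifted by 0.52 and -1.63. Smaller shifts with overlapping libraries were seen for RPS10, AT5G41520 to AT5G52650, at 0.08, and for RPL9, AT1G33120 to AT1G33140 (PGY2), at 0.08 (exact permutation, adjusted p = 0.041). Of the 100-base stretches of the first RPL9 gene 50.8% occur unchanged in the second, so their reads may be exchanged. No other pair shared a single such stretch. The RPS13 pair was the exception: AT3G60770 and AT4G00100 stood between 0.949 and 0.968 without and between 0.944 and 1.04 with NaCl, a shift of 0.03 that did not pass (exact permutation, adjusted p = 0.354).

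**Figure D3:**
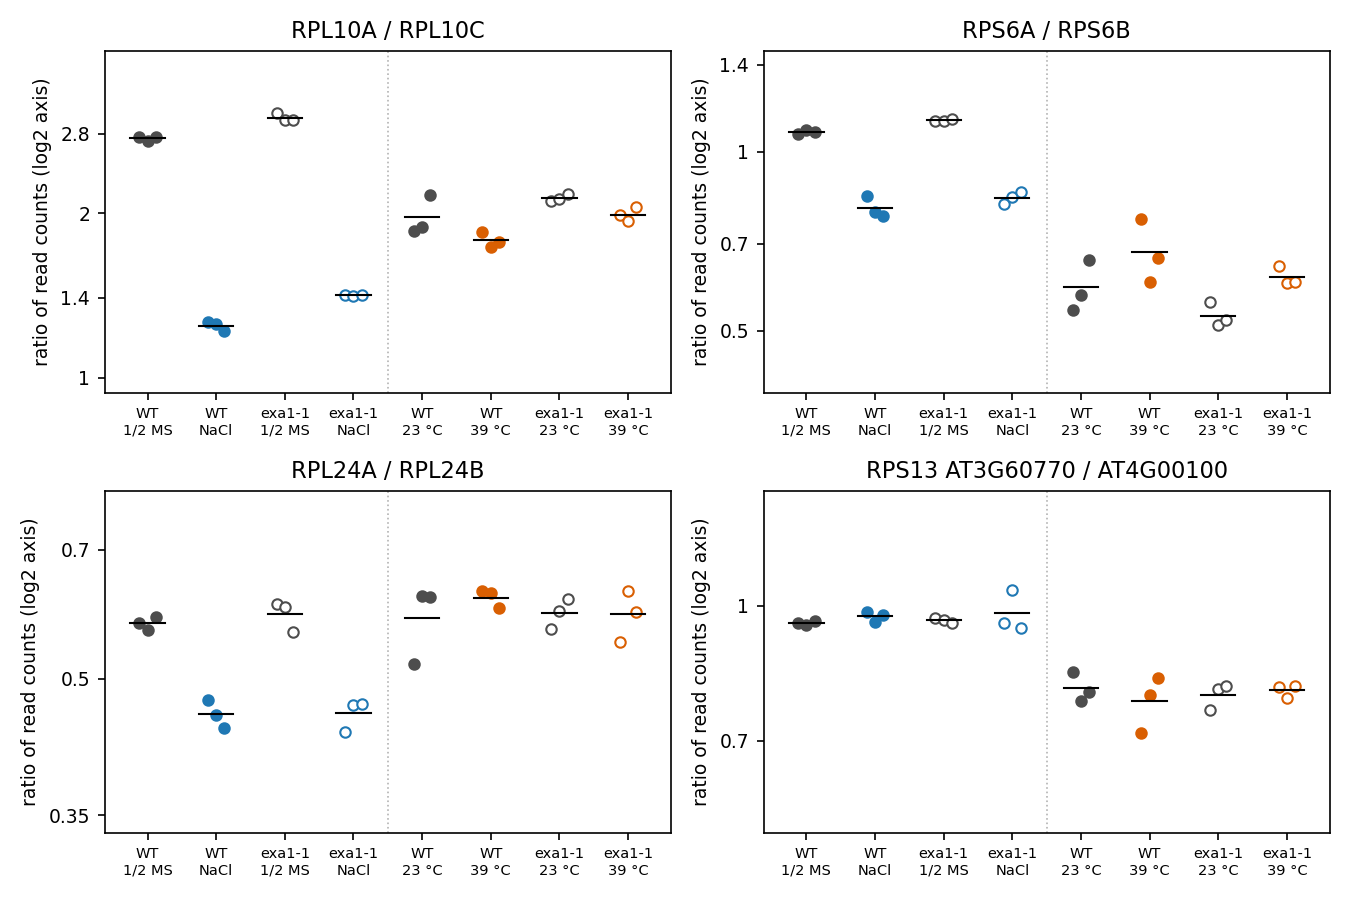
Ratio of the read counts of 2 paralogs within each library, on log2 axes; points are libraries (filled wild type, open exa1-1), bars are means, and the dotted line separates the salt set from the heat set. RPL10A to RPL10C went from between 2.72 and 3.05 to between 1.22 and 1.42 with NaCl, RPS6A to RPS6B and RPL24A to RPL24B were lower with NaCl in both genotypes, and RPS13 did not separate.

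At 39 °C the direction of the same genes depended on what they were measured against. With TMM factors, which centre the bulk of genes, 47 of 53 were higher and 1 lower in wild type, against 36.6% higher and 38.6% lower of 21196 genes tested, with a median of 0.59 where all genes had -0.06. Scaled to library totals alone, 2 were higher and 41 lower, against 12.2% higher and 72.8% lower, with a median of -0.31 where all genes had -0.97. In exa1-1 TMM gave 43 higher and 2 lower with a median of 0.47 (all genes -0.09; 36.3% higher and 39.7% lower), and library totals 1 higher and 48 lower with a median of -0.42 (all genes -0.97; 13.6% higher and 71.7% lower). Upper-quartile factors lay between, with 32 higher and 2 lower in wild type (27.1% and 49.4% of all genes) and 22 and 4 in exa1-1 (26.5% and 51.1%). The difference from the median of all genes changed little with the factors: 0.66, 0.66 and 0.65 under TMM, upper-quartile factors and totals in wild type and 0.56 in exa1-1 under each of the 3. On log2(FPKM + 1), where low genes shrink towards 0, it was 0.38 and 0.27. The heat set therefore showed ribosomal protein genes lower as a share of all reads at 39 °C and higher relative to the middle of the other genes. Root markers were lower at 39 °C in wild type for 7 of 8 genes under TMM, with a summed level of 40.02 to 44.4 CPM at 23 °C and 18.8 to 29.7 at 39 °C, and dividing-cell markers were higher for 2 and lower for 5 of 12, with 97.6 to 101.5 and 86.8 to 99.9 CPM. By totals 8 of the 8 root and 11 of the 12 dividing-cell markers were lower and 0 higher. Their part was not tested.

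RPL3 and RPL12 lay at the ends of the range. RPL3 (AT1G43170), at the peptidyl transferase centre, went from 404, 406 and 379 CPM at 23 °C to 910.1, 875 and 949 at 39 °C in wild type under TMM, a log2 change of 1.20 (SE 0.07) (edgeR adjusted p = 6.29e-12), and rose by 1.10 in exa1-1. In FPKM, which the authors scaled to library totals, it read 311, 319 and 303 and 377, 363 and 405 in wild type, so that the groups did not overlap on either scale, and the change by library totals was 0.29 and 0.21 in the 2 genotypes. RPL4 (AT5G02870), a protein of the tunnel wall, changed by 1.11 (SE 0.08) and 0.95 (SE 0.07) under TMM and by 0.20 and 0.07 by totals. RPL3 and RPL4 in wild type and RPL3 in exa1-1 were the genes called higher by totals. RPL12 (AT2G37190), which binds the base of the stalk, was lower under both scalings: 164, 162 and 162 CPM at 23 °C and 132, 123 and 127 at 39 °C in wild type, a change of -0.35 (SE 0.07) (edgeR adjusted p = 0.000145), and -0.51 (SE 0.07) in exa1-1. By totals it changed by -1.26 and -1.39. RPL12 libraries at 39 °C were all below those at 23 °C in each genotype.

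Next in order under TMM were RPS3 (AT2G31610), at the entry of the messenger RNA channel, at 0.89 (SE 0.07) in wild type and 0.84 (SE 0.07) in exa1-1, RPS9 (AT5G15200) at 0.83 (SE 0.07) in wild type and RPS18 (AT1G22780) at 0.75 (SE 0.07) in exa1-1. By library totals these 4 values were -0.02, -0.04, -0.07 and -0.13 and none passed the test. The other gene called lower in exa1-1 under TMM was RPL23aB at -0.24 (SE 0.09) (edgeR adjusted p = 0.0262), and -1.12 by totals, with -0.03 in wild type under TMM, which did not pass. The genes with no paralog among the 53 lay under TMM from RPL12 (AT2G37190) at -0.35 to RPL3 (AT1G43170) at 1.20 in wild type and from RPL12 (AT2G37190) at -0.51 to RPL3 (AT1G43170) at 1.10 in exa1-1. RPL19 changed by 0.76 (SE 0.07) in wild type under TMM and by -0.15 by totals. RPL10C, which rose with NaCl, changed at 39 °C by 0.75 (SE 0.07) under TMM and -0.16 by totals in wild type, beside 0.61 (SE 0.08) and -0.30 for RPL10A.

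**Figure D4:**
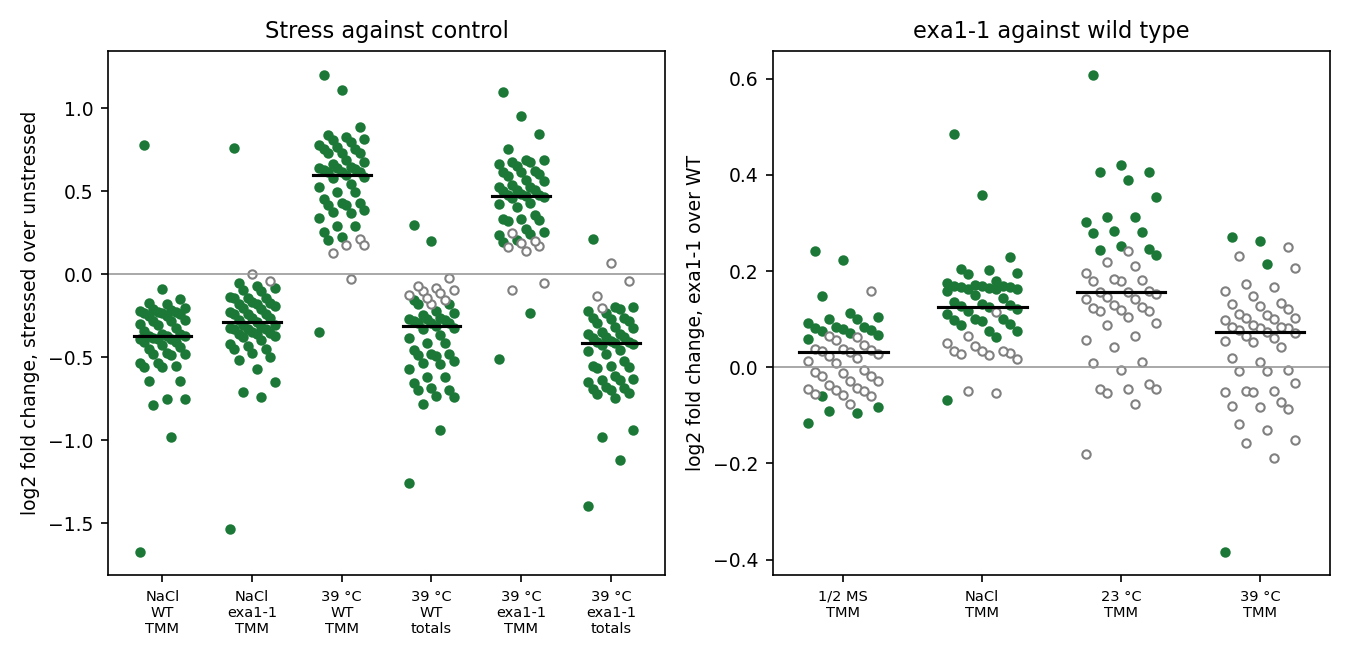
Left: log2 fold change of each of the 53 genes, stressed over unstressed seedlings, under TMM and, for 39 °C, also under library totals. Right: exa1-1 over wild type in each condition under TMM. Each point is a gene, filled where the edgeR adjusted p was below 0.05, and bars are medians. The NaCl medians were -0.37 and -0.29, and the 39 °C median of wild type was 0.59 under TMM and -0.31 under totals.

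Ratios between paralogs, which carry no scaling, shifted at 39 °C in 10 of 16 cases (exact permutation over 12 libraries, adjusted p below 0.05), and in 6 of the 16 the 39 °C and 23 °C libraries did not overlap. Other pairs of genes were not compared here either. RPL23aA gained on RPL23aB, from between 3.88 and 4.91 to between 5.29 and 6.57, and RPS10 AT5G41520 on AT5G52650, from between 1.60 and 1.81 to between 1.97 and 2.59. RPL10a AT1G08360 gained on AT2G27530, from between 0.836 and 0.937 to between 1.04 and 1.32, a shift of 0.35 where NaCl gave -0.21 in the other set. RPL4 AT3G09630 lost to AT5G02870, from between 1.15 and 1.35 to between 0.99 and 1.05. RPL10B lost to RPL10A and RPL10C, with shifts of 0.36 for A to B and -0.48 for B to C. Each of these 6 ratios had an adjusted p of 0.0107, the smallest possible.

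Ratios that passed with overlapping libraries included RPL10A to RPL10C at -0.12, RPP0 AT3G09200 to AT2G40010 at 0.40 and RPS6A to RPS6B at 0.21. The shift of RPL10A to RPL10C at 39 °C was small beside the -1.11 under NaCl; the difference between sets was not tested. The ratios within RPL5, RPL9, RPL24 and RPS13 and those of AT3G11250 to the other RPP0 genes did not pass, with shifts from -0.15 to 0.25. Under TMM the paralogs of these pairs moved as follows in wild type: RPL5A 0.61 and RPL5B 0.65, RPL9 AT1G33120 0.38 and AT1G33140 0.34, RPL24A 0.49 and RPL24B 0.42, RPS13 AT3G60770 0.58 and AT4G00100 0.63. All 8 were called higher under TMM and were below 0 by totals, from -0.57 to -0.26.

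The exa1-1 mutant differed from wild type by small amounts, with more of the 53 called higher than lower on 1/2 MS, with NaCl and at 23 °C. On 1/2 MS 17 of 53 genes were higher and 5 lower, against 13.3% higher and 16.0% lower of all genes, with a median of 0.03. Those on 1/2 MS were mostly 60S genes, 14 higher and 3 lower with a median of 0.05, while of the 19 40S genes 3 were higher and 2 lower, with 9 above and 10 below 0 and a median of -0.02. With NaCl 39 were higher and 1 lower, against 18.6% and 17.2%, with a median of 0.12. At 23 °C 16 were higher and 0 lower, against 3.28% and 4.26%, with a median of 0.16, and 25 of 53 had an unadjusted p below 0.05 there. At 39 °C 3 were higher and 1 lower, against 7.45% and 8.03%, a smaller share of the 53 than of all genes in both directions, with a median of 0.07. The median of all genes was at most 0.02 from 0 in the 4 comparisons. RPL9 AT1G33120, ranked 4 from the lowest of the 53 by FPKM, stood above 94.6% of genes with counts. The part of this high level in the shares called was not tested. By library totals 25 were higher and 3 lower on 1/2 MS (16.9% and 14.3% of all genes), 42 and 0 with NaCl (21.2% and 15.6%), 13 and 0 at 23 °C (2.87% and 4.34%) and 4 and 1 at 39 °C (7.76% and 7.48%). These counts depended on the fit: with all 24 libraries in 1 fit 1 was called on 1/2 MS (12.4% of all genes in either direction), 11 with NaCl (18.2%), 23 at 23 °C (17.7%) and 12 at 39 °C (25.6%), where 3 of the 12 were lower. At 39 °C DESeq2 called 7 (18.9% of all genes) and a fit of only the 6 libraries compared 1 (9.89%). Leaving out 1 library in turn gave 6 to 12 calls at 23 °C. There, 10 and 6 were called without wild-type replicates 1 and 2, and 6, 7 and 8 without exa1-1 replicates 1, 2 and 3. At 39 °C 1 was called without wild-type replicate 2, and 2 without exa1-1 replicate 2 or 3. Of 8 root markers 5 were called higher in exa1-1 on 1/2 MS and 0 at 23 °C by edgeR under TMM, where 5 lay above 0 and 4 had an unadjusted p below 0.05, and the difference between the sets was not tested; summed levels were 111.9 to 114.7 against 80.8 to 84.3 CPM on 1/2 MS and 42.8 to 50.3 against 40.02 to 44.4 at 23 °C. Their part was not tested.

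The same few genes led in several conditions. RPL10B was higher by 0.24 (SE 0.06) in exa1-1 on 1/2 MS and by 0.48 (SE 0.08) with NaCl (edgeR adjusted p = 0.00101 and 2.36e-08), with 16.5, 17.4 and 18.3 CPM in wild type and 25.5, 22.6 and 25.0 in exa1-1 under NaCl. The minor RPP0 gene AT2G40010 was higher by 0.22, 0.36 and 0.61 on 1/2 MS, with NaCl and at 23 °C, with 11.1, 10.1 and 11.2 CPM in wild type and 15.0, 17.8 and 16.5 in exa1-1 at 23 °C. These groups did not overlap. As described above, reads of a gene on the opposite strand may be mixed into the counts of AT2G40010. RPL12 was higher in all 4 conditions, by 0.15, 0.14, 0.42 and 0.26, with 164, 162 and 162 against 214, 215 and 224 CPM at 23 °C. At 23 °C RPL9 AT1G33140 was higher by 0.41 (SE 0.09) and its neighbour AT1G33120 by 0.39.

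Other leading values were RPL7 (AT2G01250) at 0.11 (SE 0.02) on 1/2 MS, RPS6A at 0.23 (SE 0.02) and RPS10 AT5G52650 at 0.20 (SE 0.03) with NaCl, and RPS27 (AT3G61110) at 0.21 (SE 0.07) at 39 °C (edgeR adjusted p = 0.0498). Genes lower in exa1-1 were RPL23aB at -0.12 (SE 0.03), RPS21 (AT3G53890) at -0.10 (SE 0.04), RPS24 (AT3G04920) at -0.09 (SE 0.03) and RPL13 (AT3G49010) at -0.08 (SE 0.02) on 1/2 MS, RPL10C at -0.07 (SE 0.02) with NaCl, and RPL23aB at -0.38 (SE 0.09) at 39 °C. Paralog ratios differed between genotypes in 9 of 16 cases in the salt set and 6 of 16 in the heat set (exact permutation, adjusted p below 0.05). For genotypes, too, ratios of other pairs of genes were not compared. RPL10B gained on RPL10C in exa1-1 by 0.42 in the salt set and 0.25 in the heat set, and RPP0 AT2G40010 on AT3G09200, with shifts of -0.21 and -0.32 for AT3G09200 to AT2G40010. RPS13 did not pass in either set, at 0.01 and 0.01.

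The fall with NaCl was smaller in exa1-1 for part of the genes. The interaction of genotype and NaCl passed for 20 of 53, all in the direction of a smaller fall in exa1-1, against 11.6% of all genes positive and 9.61% negative, with a median of 0.09. The largest among those that passed were RPS21 at 0.22 (SE 0.05), RPS24 at 0.22 (SE 0.04), RPL23aB at 0.22 (SE 0.05) and RPP0 AT3G11250 at 0.21 (SE 0.07) (edgeR adjusted p = 0.000532, 1.16e-06, 0.000542 and 0.0279). RPS24 read 284, 296 and 283 CPM on 1/2 MS and 207, 201 and 208 with NaCl in wild type, and 269.6, 269 and 272 and 221, 227 and 226 in exa1-1. The 20 were 11 of the 19 40S genes and 9 of the 34 60S genes. Medians over all genes of the subunit were 0.12 for the 40S and 0.07 for the 60S, and the difference between subunits was not tested. Markers of other cells moved in the same contrast: of 8 root markers 1 had a positive and 3 a negative interaction that passed, with a median of -0.43, and of 12 dividing-cell markers 0 and 2, with a median of -0.23. Summed root levels in exa1-1 were between 111.9 and 114.7 CPM on 1/2 MS and between 24.6 and 26.9 with NaCl, beside the wild-type values above, and their part was not tested. In a fit of all 24 libraries 0 of 53 were called (7.25% of all genes), with 3 at an unadjusted p below 0.05 and a median of 0.07, and DESeq2 called 17 (17.8% of all genes). Without wild-type NaCl replicate 3 the count was 13. The interaction with 39 °C passed for 1 gene, RPP0 AT3G09200, whose rise under TMM was 0.80 in wild type and 0.40 in exa1-1, an interaction of -0.39 (SE 0.10) (edgeR adjusted p = 0.0489), against 0.788% of all genes negative and 0.849% positive. By library totals the same gene changed by -0.11 and -0.48, and the interaction did not pass there. Nor did it pass under TMM when a single library was left out, save for wild-type 39 °C replicate 3. DESeq2 called 1 of the 53 for this interaction (4.18% of all genes) and the fit of all 24 libraries 2 (9.69%).

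Other genes of the ribosome and of its making were set beside the 53. Over all genes tested in wild type 36.9% rose and 37.6% fell with NaCl. At 39 °C 36.6% were higher and 38.6% lower under TMM, and 12.2% and 72.8% by totals. Of 69 further genes annotated as cytosolic ribosomal proteins, 63 were tested in the salt set, and 53 were lower and 3 higher with NaCl in wild type, with a median of -0.37. Of 62 tested in the heat set 43 were higher and 7 lower at 39 °C under TMM, with a median of 0.43, and 0 higher and 55 lower by totals, with -0.47. In exa1-1 against wild type under TMM, 10 of the 63 were higher and 3 lower on 1/2 MS (13.3% and 16.0% of all genes). With NaCl these were 27 and 1 (18.6% and 17.2%). At 23 °C 17 of the 62 were higher and 0 lower (3.28% and 4.26%), and at 39 °C 3 and 0 (7.45% and 8.03%). The interaction with NaCl passed for 12 of the 63, all positive (11.6% of all genes positive and 9.61% negative). Of 25 genes of ribosome biogenesis 20 were lower and 3 higher with NaCl in wild type, with a median of -0.33. FIB2 (AT4G25630), fibrillarin of the nucleolus, fell by 1.58 (SE 0.03) and NOP56 (AT1G56110), of the same small nucleolar particles, by 0.93 (SE 0.03), while the second nucleolin gene NUC-L2 (AT3G18610) rose by 0.44 (SE 0.12) and AT4G31420 by 1.00 (SE 0.05). At 39 °C 15 of the 25 were higher and 2 lower under TMM, led by FZF (AT2G24500) at 2.23 (SE 0.10) and the export adaptor NMD3 (AT2G03820) at 2.10 (SE 0.07), with PUM23 (AT1G72320) at -0.45 (SE 0.09) and FIB2 at -0.30 (SE 0.11), and 3 were higher and 18 lower by totals. Of 7 genes of the TOR pathway and ribosomal stress 3 rose and 3 fell with NaCl in wild type, with S6K2 (AT3G08720), a kinase of RPS6, at 1.69 (SE 0.05), its paralog PK1 (AT3G08730) at 0.48 (SE 0.03), RAPTOR1 (AT3G08850), a partner of TOR, at -0.21 (SE 0.04) and NAC082 (AT5G09330), a factor of the ribosomal stress response, at -0.62 (SE 0.04). At 39 °C 4 of the 7 rose and 0 fell under TMM, and 1 rose and 5 fell by totals. The counts of these 7 with NaCl lay near the shares of all genes. So did the counts at 39 °C by totals, both for these 7 and for the 25 genes of ribosome biogenesis.

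With NaCl in wild type the genes for plastid ribosomal proteins moved in both directions, and most of the mitochondrial ones fell. Over all genes tested 36.9% rose and 37.6% fell with NaCl in wild type under TMM, and the plastid counts lay near these shares. Of 8 nuclear genes for plastid ribosomal proteins 3 rose and 3 fell in wild type with a median of -0.01 (3 and 5 by totals). Of 12 mitochondrial ones tested 1 rose and 8 fell in wild type with a median of -0.25 (1 and 11 by totals). Under TMM they ranged from AT5G39800 at -0.84 (SE 0.14) to AT5G52370 at 0.38 (SE 0.06). In exa1-1 2 plastid genes rose and 5 fell with a median of -0.17, or 0 and 6 by totals, and the interaction of genotype and NaCl was negative and passed for 5 of the 8. Of the mitochondrial genes 1 rose and 7 fell in exa1-1, with a median of -0.21 (1 and 11 by totals). At 39 °C all 8 plastid genes were higher under TMM in wild type, with a median of 1.01, led by PRPS20 (AT3G15190) at 1.68 (SE 0.07), and by totals 4 were higher and 2 lower with 0.10. The mitochondrial genes were 5 higher and 1 lower under TMM and 1 higher and 9 lower by totals. Of all genes tested 36.6% were higher and 38.6% lower at 39 °C in wild type under TMM, and 12.2% and 72.8% by totals. Save for the 1 lower under TMM, the mitochondrial counts lay near these shares.

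Over the 24 libraries, the 53 genes followed each other to different degrees. The correlation of a gene's log2 CPM with the mean of the other 52 had a median of 0.79, from -0.11 for RPL12 and 0.09 for RPL10C to 0.98 for RPL7 and RPL10A, with RPL23aB and RPS10 (AT5G52650) also below 0.5. Since the libraries fall into 8 groups in 2 sets, these values mostly describe differences between groups and carry no test. Outside the 53, genes most like their mean included AT3G07110 at 0.98, annotated with the same product as the RPL13a gene AT5G48760. A 60S acidic protein gene (AT4G00810), an RPL27e family gene (AT3G22230) and UBQ5 (AT3G62250) followed, each at 0.97. UBQ5 encodes ubiquitin fused to a ribosomal protein.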

How the data were processed

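RNA was measured by strand-specific mRNA sequencing in 24 libraries, 12 in a salt set and 12 in a heat set. Read counts per gene were deposited by the authors, made with HISAT2 2.0.4 and HTSeq 0.6.1p1 on TAIR10, per the submitters' processing notes. The strand setting of the counting and read filters are not given in the sources used here. FPKM values were also deposited by the authors. In the files they equal the count divided by a fixed gene length and the column total, so they carry no composition factors.

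From the counts, edgeR 4.0.16 (R 4.3.3) was run on each set with filterByExpr, TMM factors, a robust quasi-likelihood fit of the 4 groups of 12 libraries, and Benjamini-Hochberg adjustment over all genes tested, with a threshold of 0.05. The standard error of a log2 change was approximated from the change and its F statistic. Alternatives were RLE and upper-quartile factors, library totals alone, TMM without the 53 genes, organelle genes left out, DESeq2 1.42.0, limma 3.58.1 on log2(FPKM + 1) and log2(FPKM + 0.1), no filter, other samples in the fit, a replicate block and leaving out each library. Ratios of paralogs used counts and an exact permutation test within strata (400 arrangements, Benjamini-Hochberg over 64 tests) in Python 3.11.15. Both procedures were tested on simulated data. Depth was 17600922 to 21557382 counts per library. The edgeR p-values rest on the spread among the 3 biological replicates of a group, estimated over the 4 groups of a set. Those of the ratios come from permuted labels of libraries within strata.

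Named genes are, per comparison, up to 4 genes per direction with the largest change among those that passed, the paralogs, the highest and lowest gene by FPKM, up to 2 per direction for other lists, and the 5 most alike genes. The members and lists were chosen with earlier results of these data known. Results for some of the genes named by these rules are not reported here; those genes stay in all counts, medians and fits.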

Additional observations from a re-analysis of the deposited data

Results flagged for a closer look

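By the interaction term of the edgeR fit under TMM, the effect of NaCl was called different between wild type and exa1-1 for 20 of the 53 genes. Of all genes 11.6% were called positive and 9.61% negative there. The effect of 39 °C was called for 1, against 0.849% of all genes positive and 0.788% negative. The NaCl calls were lost when all 24 libraries shared a fit, and the 39 °C call was lost under library totals. Values are log2 differences of the effect, exa1-1 minus wild type. For the 60S subunit they were 0.13 for RPL3 (AT1G43170), 0.11 for RPL4 (AT5G02870), 0.17 for RPL13a (AT5G48760), 0.14 for RPL18 (AT3G05590), 0.10 for RPL21 (AT1G09590), 0.22 for RPL23aB (AT3G55280), 0.10 for RPL28 (AT2G19730), 0.17 for RPL30 (AT1G77940) and 0.21 for RPP0 (AT3G11250). For the 40S subunit they included 0.13 for RPS6A (AT4G31700), 0.14 for RPS6B (AT5G10360), 0.10 for RPS9 (AT5G15200), 0.12 for RPS10 (AT5G41520), 0.14 for RPS10 (AT5G52650), 0.17 for RPS18 (AT1G22780), 0.22 for RPS21 (AT3G53890), 0.22 for RPS24 (AT3G04920) and 0.18 for RPS27 (AT3G61110). At 39 °C the value was -0.39 for RPP0 (AT3G09200). Groups held 3 libraries, too few to look for single libraries that stand apart.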

How the results depend on the processing

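With NaCl the direction of the 53 genes' median held under all alternatives run. It was -0.49 in wild type and -0.40 in exa1-1 with upper-quartile factors, -0.52 and -0.44 with library totals and with both FPKM fits, and -0.32 and -0.25 when the 24 libraries shared a fit. The median at 39 °C turned, from 0.59 to -0.31 under library totals and -0.32 under both FPKM fits in wild type, and from 0.47 to -0.42 under all 3 in exa1-1. Upper-quartile factors gave 0.30 and 0.15, with 26 genes called in exa1-1 (26.5% of all genes higher and 51.1% lower). No filter on low counts gave 0.42 in exa1-1. Under library totals and both FPKM fits RPS3 (AT2G31610) was at -0.023, -0.020 and -0.020 in wild type and -0.041, -0.040 and -0.040 in exa1-1, RPS9 (AT5G15200) at -0.073, -0.075 and -0.076 in wild type and RPS18 (AT1G22780) at -0.13 in exa1-1, none called.

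For exa1-1 against wild type on 1/2 MS the median was 0.053 under library totals and 0.054 under both FPKM fits. With all 24 libraries in 1 fit 1 gene was called on 1/2 MS (12.4% of all genes) and 11 with NaCl (18.2%, median 0.10). For the NaCl interaction 0 were called (7.25%, median 0.065), with 3 at an unadjusted p below 0.05. At 39 °C 12 were called (25.6%) and for the 39 °C interaction 2 (9.69% of all genes). At 39 °C DESeq2 called 7 (18.9% of all genes) and a fit of only the 6 libraries compared 1 (9.89%). The 39 °C interaction was called for 0 genes under RLE, upper-quartile factors, library totals and both FPKM fits, with 2 at an unadjusted p below 0.05 under library totals, and for 1 by DESeq2 (4.18% of all genes). The cause of these changes was not tested.

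Leaving out 1 library in turn, the genes called ranged from 53 to 53 and 49 to 51 with NaCl in wild type and exa1-1, 46 to 49 and 42 to 46 at 39 °C, 18 to 22 and 33 to 40 between genotypes on 1/2 MS and with NaCl, 6 to 12 and 1 to 5 at 23 °C and 39 °C, and 13 to 25 and 0 to 1 for the interactions. The medians ranged in the same order from -0.38 to -0.36, -0.29 to -0.28, 0.54 to 0.61, 0.45 to 0.51, 0.02 to 0.04, 0.10 to 0.13, 0.14 to 0.20, 0.03 to 0.12, 0.068 to 0.099 and -0.15 to -0.056. Paralog ratios that passed ranged from 14 to 15 with NaCl, 8 to 12 at 39 °C, 6 to 9 between genotypes in the salt set and 5 to 7 in the heat set. In the fits of all 12 libraries, shares of all genes called higher and lower with NaCl were 36.9% and 37.6%, and 37.1% and 37.9%. At 39 °C they were 36.6% and 38.6%, and 36.3% and 39.7%. Between genotypes they were 13.3% and 16.0%, 18.6% and 17.2%, 3.28% and 4.26%, and 7.45% and 8.03%. For the interactions they were 11.6% and 9.61%, and 0.849% and 0.788%.

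Replicate numbers did not pair the libraries: same-numbered libraries correlated at -0.047 to 0.028 in the salt set and -0.062 to 0.098 in the heat set. A fit with the replicate block called 53 and 51 genes with NaCl, 48 and 45 at 39 °C, 22, 41, 12 and 3 between genotypes on 1/2 MS, with NaCl, at 23 °C and at 39 °C, and 19 and 0 for the interactions. The shares of all genes given above are those of the fits without the block.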
